A study of Mus musculus with 10 samples.

Results

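The genes described here carry the cyclic AMP signal from its synthesis to the nucleus: the adenylyl cyclases (Adcy1 to Adcy10), the cyclic nucleotide phosphodiesterases named Pde with a family number and a letter from a to d, 6 subunit genes of protein kinase A (PKA), and the transcription factor genes Creb1 and Crem. They were taken by gene symbol, which gave 40 of the 32903 genes in the table: 10 cyclases, 22 phosphodiesterases, 2 catalytic and 4 regulatory PKA subunits and 2 CREB family members. No measured value enters that rule, but the group was put together with results of the BPS contrast already known. Fold changes and adjusted p-values for these genes are therefore given as descriptions. RNA was sequenced from preadipocytes, the precursors of fat cells, labelled as male iSAT (inguinal subcutaneous fat) of genotype WT C57 BL6. The vehicle DMSO alone was given in 5 libraries, and 5 others came from cells exposed to 2.5 µM bisphenol S (BPS), also in DMSO. Exposure time, animal age and whether replicates were separate animals or dishes were not given in the sources used here, so p-values measure the spread between libraries, which may be technical.

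Adenylyl cyclases turn ATP into cyclic AMP when a hormone receptor activates the stimulatory G protein. Cyclic AMP binds the regulatory subunits of PKA and frees the catalytic subunits, which phosphorylate many proteins, among them CREB; phosphodiesterases end the signal by cleaving the nucleotide. In fat this route drives lipolysis, and in cultured preadipocytes a phosphodiesterase inhibitor is a standard part of the mixture that starts differentiation.

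Total estimated counts lay between 38200573 and 42314795 per DMSO library and between 37920689 and 42717227 per BPS library. All 13 progenitor markers averaged over 1 CPM (counts per 1000000 counts). So did 6 of 8 mural, 4 of 8 endothelial, 3 of 8 macrophage, 2 of 8 mesothelial and 2 of 8 mature adipocyte markers. Of 8 mature adipocyte markers 5, among them Adipoq and Lep, had at most 3 counts in any library. Lipe and Pnpla2 of that list were detected, at 4.37 and 10.4 CPM in DMSO and 4.21 and 11.4 CPM in BPS. Neither was called by edgeR. Of the 13 progenitor markers 2 rose by edgeR, Cd34 from 45.2 ± 1.56 to 54.8 ± 1.88 CPM and Thy1 from 848 ± 7.33 to 968 ± 40.1 CPM (SD, n = 5 each). None of the others was called, and some went the other way, among them Pdgfra (904 to 863 CPM) and Dpp4 (2.45 to 2.13 CPM). The summed progenitor level, mostly Col1a1 and Col1a2, overlapped, at 44400 to 47000 CPM in DMSO and 43100 to 48400 CPM in BPS. The summed level of 8 mural markers ran from 78.4 to 83.8 CPM in DMSO and from 86.5 to 100 CPM in BPS, with Higd1b at or under 3 counts everywhere. Of 7 mural markers tested, 2 rose (Cspg4 and Mcam) by edgeR. Mesothelial markers summed to 10.4 to 12.2 CPM in DMSO and 12.2 to 14.2 CPM in BPS, with 4 of 8 at or under 3 counts. Of 3 tested, Krt19, which made up most of that sum, rose by edgeR (9.34 to 11.2 CPM), while Wt1 went the other way without being called (0.849 to 0.569 CPM). Macrophage markers overlapped, at 11.4 to 18.2 CPM and 12.4 to 20.9 CPM, with Csf1r at or under 3 counts. The part of these cells and markers in the differences below was not tested. In bulk RNA, fewer cells of a type and less RNA per cell cannot be told apart. The library codes place all DMSO libraries before all BPS libraries, so a batch in that order and the treatment cannot be told apart.

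The promoter windows shown are the 250 bases before a RefSeq start (GRCm38.p6), read 5′ to 3′ on the plus strand, for Adcy7, which changed most clearly, and Prkar1a, the most abundant gene. All 3 Adcy7 windows are shown, and of 6 Prkar1a windows the one with the full element, chosen for that. Capitals mark the cyclic AMP response element, to which CREB binds: in the Adcy7 windows the half-site TGACG or its complement CGTCA, and in this Prkar1a window the palindrome TGACGTCA that contains both (a further half-site there is left in lower case).
Adcy7, chr8:88282742-88282991: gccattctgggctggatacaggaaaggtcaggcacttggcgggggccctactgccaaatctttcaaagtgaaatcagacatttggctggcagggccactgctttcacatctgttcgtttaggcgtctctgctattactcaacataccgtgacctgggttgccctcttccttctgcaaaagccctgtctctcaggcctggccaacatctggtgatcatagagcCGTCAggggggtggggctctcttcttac
Adcy7, chr8:88288816-88289065: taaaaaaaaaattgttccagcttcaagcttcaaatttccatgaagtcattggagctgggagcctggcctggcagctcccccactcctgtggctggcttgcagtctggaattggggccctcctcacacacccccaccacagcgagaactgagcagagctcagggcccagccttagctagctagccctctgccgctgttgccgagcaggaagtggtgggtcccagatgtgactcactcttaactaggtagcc
Adcy7, chr8:88293954-88294203: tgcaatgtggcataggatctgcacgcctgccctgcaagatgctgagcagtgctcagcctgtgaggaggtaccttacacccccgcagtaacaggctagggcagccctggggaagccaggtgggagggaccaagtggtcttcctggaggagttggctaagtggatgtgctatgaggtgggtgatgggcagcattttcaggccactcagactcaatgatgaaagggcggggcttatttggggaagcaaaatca
Prkar1a, chr11:109650699-109650948: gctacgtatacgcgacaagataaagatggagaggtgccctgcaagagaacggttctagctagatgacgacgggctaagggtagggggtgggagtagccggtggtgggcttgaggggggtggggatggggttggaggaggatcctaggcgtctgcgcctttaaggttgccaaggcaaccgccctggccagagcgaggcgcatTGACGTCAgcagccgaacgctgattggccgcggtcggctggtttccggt
The first Adcy7 window holds a half-site that begins 28 bases before the start, and the other Adcy7 windows hold none. A window at the most upstream Adcy7 start, that of NM_007406.2, was not analysed here. The Prkar1a window shown holds the palindrome, 49 bases before its start, and this was the only palindrome among 68 windows of 31 of these genes. Of the other 5 Prkar1a windows, 2 hold a half-site and 3 hold none. Among all 32851 windows of this length 1.55% held the palindrome and 17.8% held a half-site on either strand, against 17.6% of the windows of these genes. The core that the aryl hydrocarbon receptor binds, GCGTG, was in 1 of the 3 Adcy7 windows, in 30.9% of the windows of these genes and in 28.2% of all windows. Such matches describe letters and not binding.

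Levels between genes are compared as CPM per kilobase of the longest coding transcript in GENCODE (mean of 10 libraries). Prkar1a, the type I regulatory subunit found in most cells, had the highest level, 161 CPM per kilobase, followed by the catalytic subunits Prkaca (51.4) and Prkacb (41). Among cyclases 3 stood far above the others: Adcy6 with 20.1, Adcy7 with 14.5 and Adcy3 with 14.5 CPM per kilobase, while Adcy4 was next with 2.77. Pde6d led the phosphodiesterases with 32.8 CPM per kilobase, but despite its name it is a chaperone of prenylated proteins and cleaves no nucleotide. Of the enzymes, Pde4a (7.9), Pde8a (7.64), Pde3b (5.16), Pde7a (4.59) and Pde4d (4.36) had the highest levels per kilobase. Pde4, Pde7 and Pde8 enzymes are specific for cyclic AMP, and Pde3b is the cyclic AMP phosphodiesterase through which insulin restrains lipolysis. The order among near neighbours depends on the length used. With lengths matched to the transcripts counted, Adcy7 had 15.1 and Adcy3 16.1 CPM per kilobase. Creb1 moved from 6.9 to 11 on the 3.4% of its counts with a matched length. Pde4d moved from 4.36 to 7.18, above Pde3b and Pde7a, on 4.2% of its counts. For Adcy6 only 1.8% of counts, and for Pde4a 20.8%, had a matched length.

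**Figure D1:**
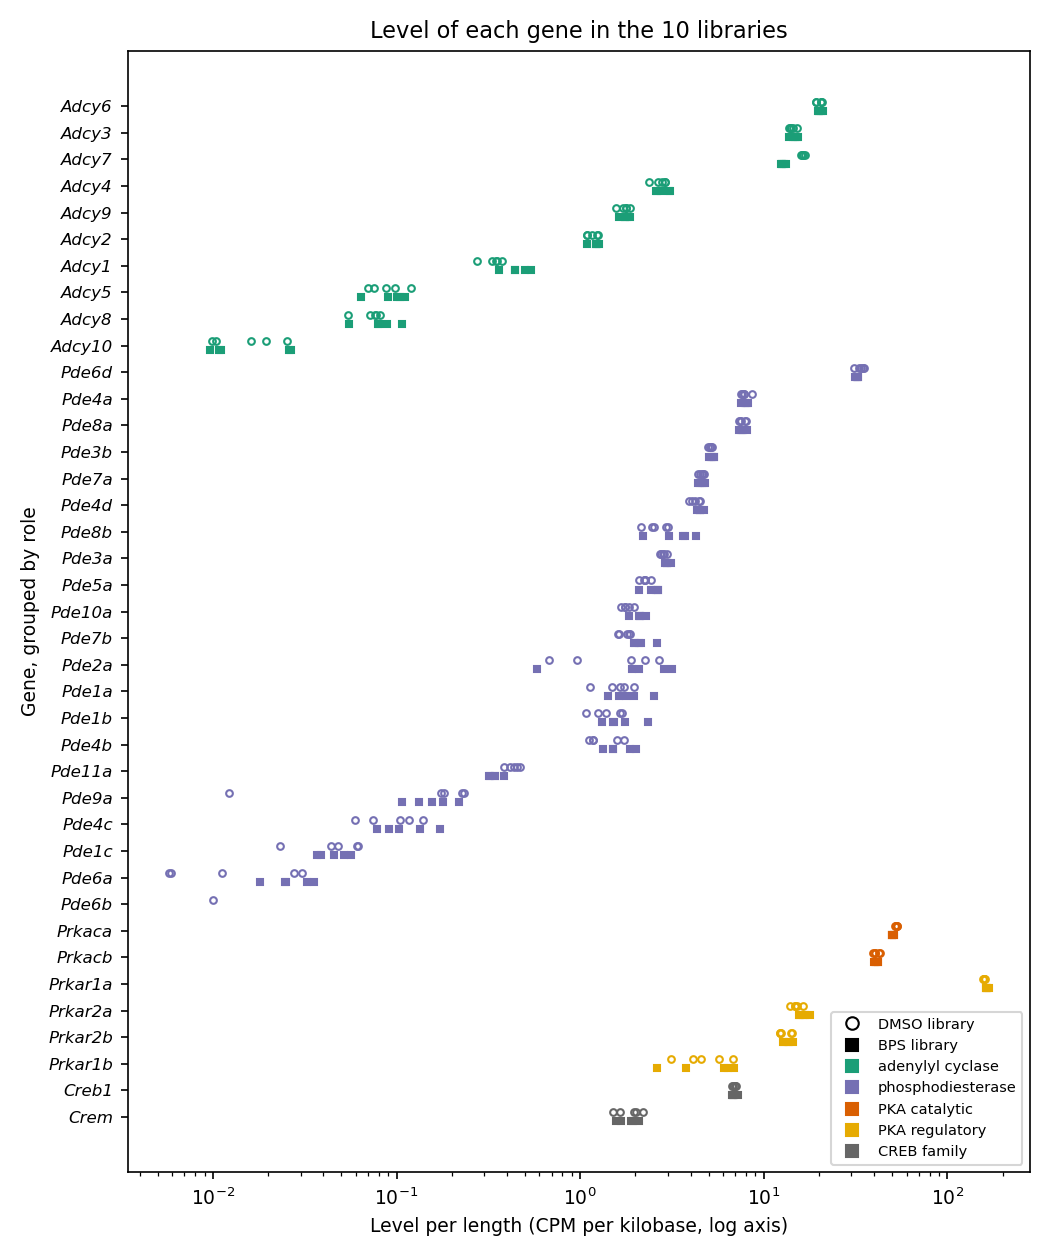
Level of each gene in CPM per kilobase (log axis), 1 point per library, open circles for the 5 DMSO and filled squares for the 5 BPS libraries, coloured by role; values of 0 are not drawn, which leaves out Pde6c and all but 1 point of Pde6b. Prkar1a lies highest at 161 CPM per kilobase, and Adcy7 is the abundant cyclase whose groups separate.

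A filter on low counts left 36 of the 40 genes for testing, and Adcy10, Pde6a, Pde6b and Pde6c dropped out. Adcy10, the soluble cyclase activated by bicarbonate, had 2 to 5 counts per library. The photoreceptor enzymes had 1 to 6 counts (Pde6a), 0 to 1 (Pde6b) and 0 (Pde6c), the last 2 under a floor of 3 counts, so their presence was not detectable at this depth. Of the 36 tested genes, 1 was higher and 1 lower under BPS at a threshold of 0.05 on the Benjamini-Hochberg adjusted p of edgeR (quasi-likelihood test over all 14597 genes). Among all genes tested 4.88% were called, 3.06% higher and 1.82% lower, so a count of 2 of 36 is close to the background. Differences were small: the median absolute log2 fold change was 0.062, against 0.056 over all genes. Of the 36 genes 22 differed by less than 0.1, where 68.5% of all genes did. The sign was positive for 28 of the 36 genes, against 50.2% of all genes. It was positive for 27 with DESeq2 size factors, 29 with upper-quartile scaling and only 23 when libraries were scaled by their size alone. The last scaling moved the median of all genes to -0.014, and its share of positive signs over all genes is not given here. The median log2 fold change of the 36 was 0.05.

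**Figure D2:**
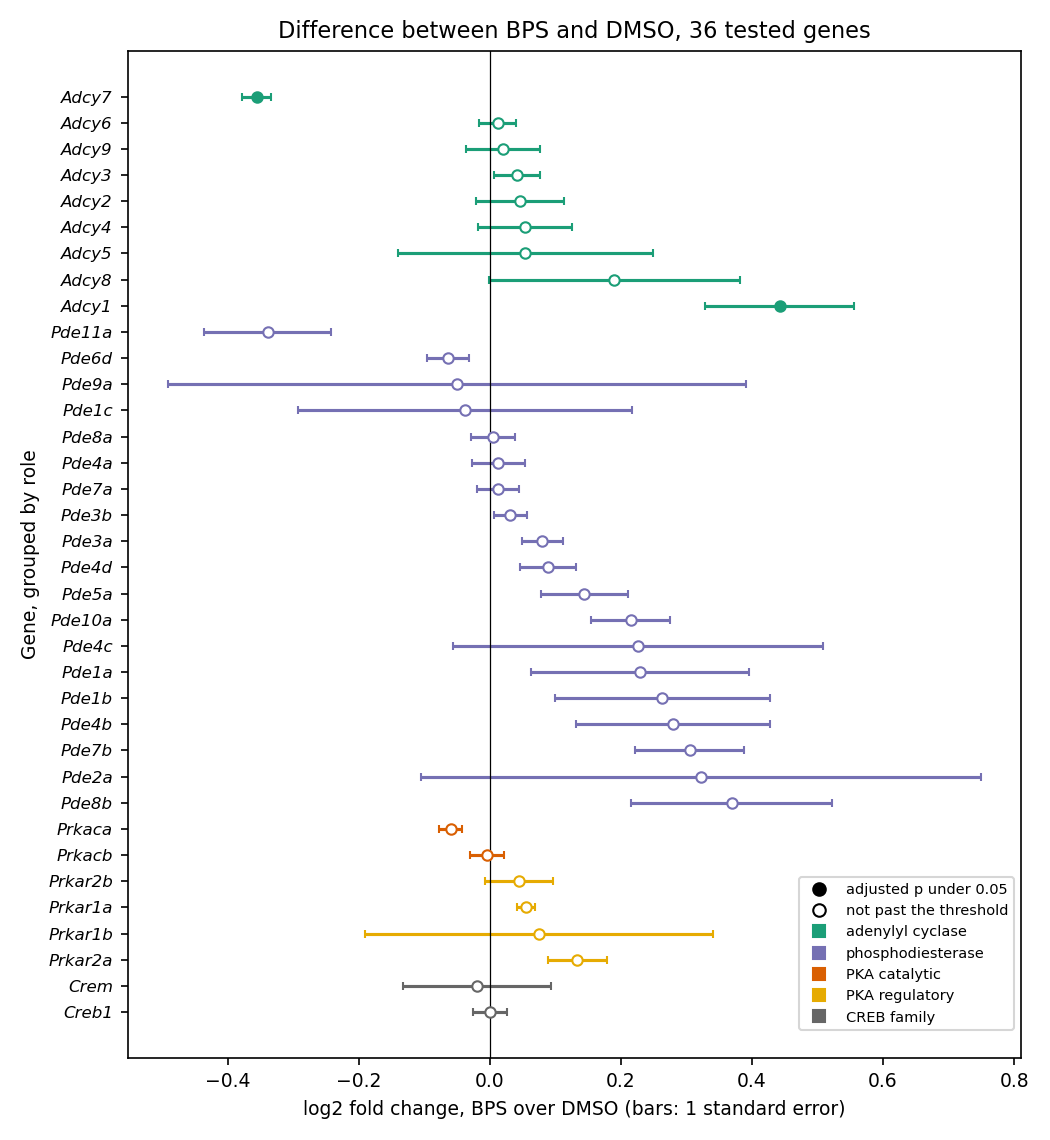
Log2 fold change of BPS over DMSO for the 36 tested genes, with bars of 1 standard error, grouped and coloured by role; filled points passed an adjusted p of 0.05 and open points did not. Adcy7 (-0.36) and Adcy1 (0.44) are filled, and none of the 6 PKA subunits is.

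Adcy7 fell under BPS by 21.9%. It belongs to the cyclases that G protein beta-gamma subunits stimulate, and is best known from blood and immune cells. Its level was 97.3, 96.7, 97, 94.8 and 99.6 CPM in DMSO replicates 1 to 5 and 75.2, 76.4, 74.4, 79 and 74.1 CPM in BPS replicates 1 to 5. Every BPS library lay below every DMSO library, with a gap several times the SD within groups. Group means were 97.1 ± 1.71 and 75.8 ± 1.99 CPM (SD over 5 libraries), from 2660 to 3826 counts per library. On the log2 scale BPS minus DMSO was -0.36 (SE 0.02; edgeR adjusted p = 1.38e-05). Adcy7 provided 28.7 ± 0.326% of the summed cyclase level per kilobase in DMSO and 23.6 ± 0.676% in BPS (SD, n = 5 each). The other members of its class, Adcy2 and Adcy4, had log2 fold changes of 0.05 (SE 0.07 each) and were not called (adjusted p 0.785 and 0.759 by edgeR).

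Adcy7 was deposited as 12 transcripts, of which 3 held most counts. These start at different positions, and kallisto, the program that estimated the counts, divides reads that fit several transcripts among them. NM_001109756.1, whose GENCODE start coincides with that of the first promoter window shown, stood at 49.5, 58.1, 53.3, 59.8 and 58.1 CPM in DMSO replicates 1 to 5 and at 45.7, 44.9, 41.1, 42.7 and 35.8 CPM in BPS replicates 1 to 5. NM_007406.2, which begins 10589 bases before it, stood at 29.5, 26.4, 26.9, 23.5 and 22.5 CPM in DMSO and at 14.5, 14.2, 17.5, 15.2 and 21.5 CPM in BPS. Both were lower in every BPS library than in any DMSO library. NM_001037723.3, whose start lies 81 bases from that of the second window, went the other way but overlapped: 7.68, 2.67, 4.03, 1.15 and 9.28 CPM in DMSO, and 6.82, 9.35, 7.63, 12.7 and 10.4 CPM in BPS. It made up 5.4% of the Adcy7 counts in DMSO and 13.1% in BPS. None passed the threshold when all transcripts were tested singly. In that order the log2 differences were -0.41 (SE 0.07), -0.64 (SE 0.13) and 0.92 (SE 0.49), with adjusted p of 0.0747, 0.103 and 0.855 by edgeR. Of 96 tested transcripts of the 40 genes 0 were called by edgeR, the only tool run on transcripts, and 13 had an unadjusted p under 0.05. Among all 37588 transcripts tested 0.335% were called and 6.83% had such a p.

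**Figure D3:**
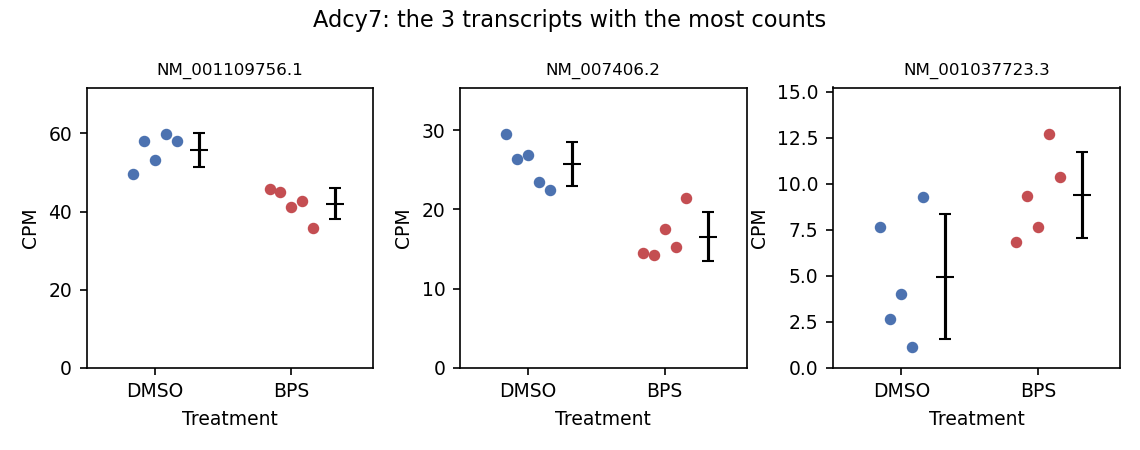
The 3 Adcy7 transcripts with the most counts, in CPM per library by treatment, replicates 1 to 5 from left within each group, with the mean and SD beside the points. The first 2 are lower in every BPS library than in any DMSO library, and NM_001037723.3 overlaps between groups, with 1.15 to 9.28 CPM in DMSO and 6.82 to 12.7 CPM in BPS.

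Adcy1 rose by 35.9% from a low level. It is a neuronal cyclase that calcium and calmodulin stimulate. Its level was 3.35, 4.3, 4.61, 4.29 and 4.08 CPM in DMSO replicates 1 to 5 and 4.44, 6.64, 5.44, 5.41 and 6.14 CPM in BPS replicates 1 to 5, on 123 to 231 counts per library. BPS replicate 1 was the lowest BPS library and lay within the DMSO range. The log2 fold change was 0.44 (SE 0.11, edgeR adjusted p = 0.0487), close to the threshold. The call was lost in 13 of the 19 alternatives that could test it, with adjusted p by edgeR, DESeq2 or limma-voom from 0.0154 to 0.107. Of the fits without 1 library, the call held in that without BPS replicate 1 and was lost in the other 9.

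The remaining 7 tested cyclases were not called. Adcy6, the most abundant and inhibited by calcium and the inhibitory G protein, averaged 121 ± 4.79 CPM in the DMSO libraries and 122 ± 3.22 CPM in the BPS libraries (log2 fold change 0.01, SE 0.03). Adcy3, which like Adcy1 responds to calcium and calmodulin, stood at 70.8 ± 2.66 and 72.9 ± 3.4 CPM (0.04, SE 0.04; SD, n = 5 each). Their adjusted p were 0.872 and 0.595 by edgeR. Adcy9, Adcy5 and Adcy8 had 300 to 350, 18 to 33 and 14 to 26 counts per library and differed between treatments by 0.02 (SE 0.06), 0.05 (SE 0.19) and 0.19 (SE 0.19) on the log2 scale. The summed level of the 10 cyclases was 55.9 to 58.1 CPM per kilobase in DMSO and 52.4 to 55.7 in BPS. These ranges did not overlap, but the gap was narrow (55.7 against 55.9). The sum depends on the scaling between libraries and on the lengths used, and it carries no test. In the main fit Adcy7 was the only tested cyclase with a negative fold change. Adcy6 joined it when libraries were scaled by their size alone. Over all gene-level alternatives, uncalled sign changes occurred in 4 for Adcy6, 3 for Adcy5, 2 for Adcy9 and 1 each for Adcy2 and Adcy3.

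None of the 6 PKA subunit genes was called by edgeR, 3 had an unadjusted p under 0.05, DESeq2 called 2 (Prkar1a and Prkaca) and limma-voom 0. Over all genes tested the shares were 18.8% for the unadjusted p, 7.38% for DESeq2 and 4.76% for limma-voom. Prkar1a stood at 554, 558, 563, 553 and 547 CPM in DMSO replicates 1 to 5 and at 568, 570, 575, 580 and 590 CPM in BPS replicates 1 to 5. Its groups did not overlap, yet the difference was small (0.06 on the log2 scale, SE 0.01) and just missed the threshold (edgeR adjusted p = 0.0515). Prkaca was the catalytic subunit with the higher level per kilobase, though Prkacb had the higher CPM. Prkaca stood at 118, 121, 119, 119 and 121 CPM in DMSO and at 117, 114, 113, 114 and 116 CPM in BPS, again without overlap. Its log2 fold change was -0.06 (SE 0.02, edgeR adjusted p = 0.0625). Prkar1a passed in 4 of 19 alternatives and Prkaca in 3 of 20. Without BPS replicate 1 both passed.

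The type II regulatory subunits, which bind anchoring proteins, overlapped between groups. Prkar2a ran from 68.7 to 81.6 CPM in DMSO and from 77.7 to 88.1 CPM in BPS (log2 fold change 0.13, SE 0.05, edgeR adjusted p = 0.125). Without DMSO replicate 5 it passed, with an adjusted p of 0.0469 by edgeR. Prkar2b, the form typical of mature fat cells, stood at 44 ± 3.42 and 45.4 ± 2.26 CPM, and Prkacb, the other catalytic subunit, at 178 ± 6.94 and 178 ± 3.63 CPM (SD, n = 5 each). The summed regulatory over the summed catalytic level per kilobase was 2.02 to 2.08 in DMSO libraries and 2.12 to 2.21 in BPS libraries. This ratio is taken within each library and does not depend on the scaling between libraries. It carries no test, since it was built after its genes had been seen.

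A single transcript dominated Prkar1a. NM_021880.3 held 94.6% of the Prkar1a counts in DMSO and 94.1% in BPS, and its GENCODE start lies 28 bases from that of the window with the palindrome. NM_011100.4 held 77% of the Prkacb counts in DMSO and 77.2% in BPS. NM_001164199.1, a minor form of Prkacb, took 1.9 to 8.6% in the DMSO libraries and 0 to 4.8% in the BPS libraries, which overlap.

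**Figure D4:**
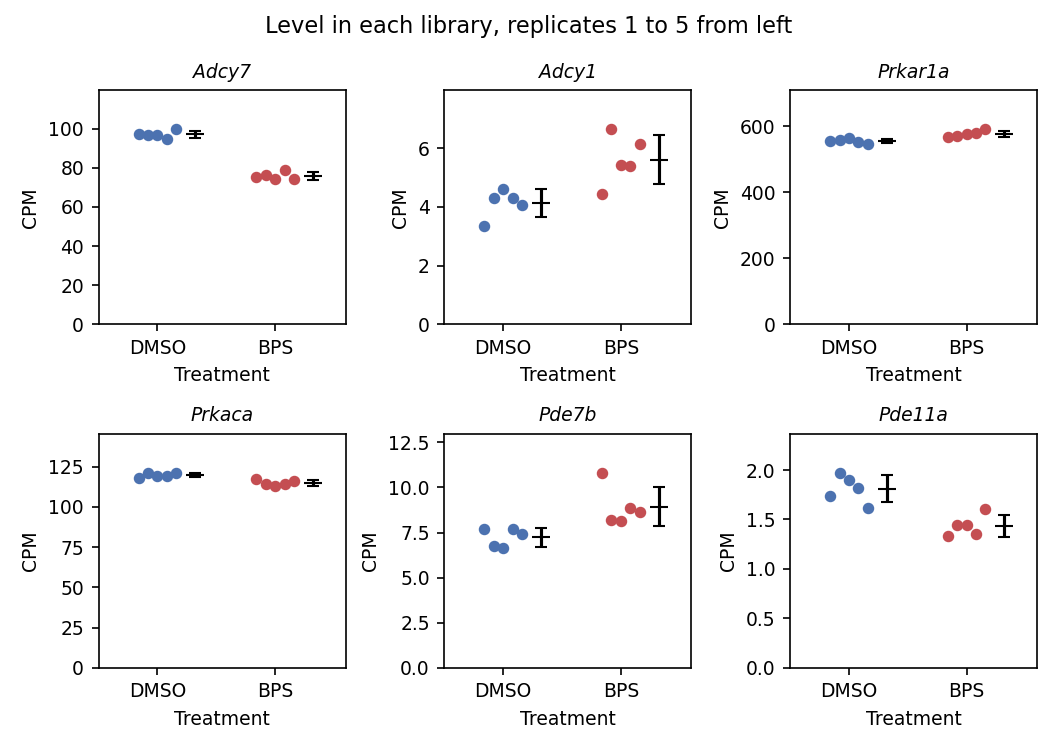
CPM in each library for Adcy7, Adcy1, Prkar1a, Prkaca, Pde7b and Pde11a, replicates 1 to 5 from left within each treatment, with the mean and SD beside the points and axes from 0. The groups separate for all of these but Adcy1, in which BPS replicate 1 (4.44 CPM) lies under the highest DMSO library (4.61 CPM).

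None of the 19 tested phosphodiesterases was called by edgeR. An unadjusted p under 0.05 was reached by 6, DESeq2 called 2 (Pde7b and Pde10a) and limma-voom 0. The background shares are those given for the PKA subunits (18.8%, 7.38% and 4.76%). Of the 8 enzymes specific for cyclic AMP, all 8 had a positive log2 fold change, with a median of 0.16. Only 5 did when libraries were scaled by their size alone (Pde4a, Pde7a and Pde8a turned negative). With exact version matching Pde4d (-1.09) and Pde8b (-0.21) turned negative. Of the 8 that cleave both nucleotides 6 were positive, with a median of 0.15. The cyclic AMP-specific enzymes summed to 28.8 to 31.8 CPM per kilobase in DMSO and 31.3 to 32.8 in BPS, which overlap.

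Pde7b, specific for cyclic AMP, stood at 7.67, 6.75, 6.62, 7.69 and 7.4 CPM in DMSO replicates 1 to 5 and at 10.8, 8.19, 8.15, 8.88 and 8.61 CPM in BPS replicates 1 to 5. The groups did not overlap, and the log2 fold change was 0.31 (SE 0.08, edgeR adjusted p = 0.0593). Pde11a, which cleaves both nucleotides, went the other way: 1.74, 1.97, 1.9, 1.82 and 1.62 CPM in DMSO and 1.33, 1.44, 1.44, 1.35 and 1.61 CPM in BPS, on 48 to 77 counts per library. Its log2 fold change was -0.34 (SE 0.10; edgeR adjusted p = 0.0705). Pde10a, also of dual specificity, ran from 13 to 15.3 CPM in DMSO and from 14.3 to 17.8 CPM in BPS, and overlapped through BPS replicate 4 alone (log2 fold change 0.21, SE 0.06, edgeR adjusted p = 0.0658). Without BPS replicate 4 it passed. In all, 5 of the 36 genes did not overlap between groups, 2 higher (Prkar1a and Pde7b) and 3 lower (Adcy7, Prkaca and Pde11a), where 6.9% of all genes tested did not.

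The abundant enzymes differed little, and none was called. Pde4a stood at 36.6 ± 2.16 and 36.9 ± 1.14 CPM, Pde8a at 29 ± 1.05 and 29.1 ± 1.05 CPM, and Pde3b at 33.5 ± 0.534 and 34.3 ± 0.858 CPM in DMSO and BPS (SD, n = 5 each). Pde7a had a log2 fold change of 0.01 (SE 0.03) and Pde4d of 0.09 (SE 0.04). Pde3a, a form known from heart, platelets and smooth muscle, had 0.08 (SE 0.03), and Pde6d had -0.06 (SE 0.03). Adjusted p for these 7 genes were 0.179 to 0.96 by edgeR. Pde5a, which cleaves cyclic GMP, had a log2 fold change of 0.14 (SE 0.07) and was not called (edgeR adjusted p = 0.262). It passed in 1 of 20 alternatives, without BPS replicate 1 (adjusted p 0.0367 by edgeR). That replicate was its lowest BPS library, at 15.9 CPM. Pde4b, which CREB is known to induce, ran from 4.82 to 7.42 CPM in DMSO and from 5.74 to 8.72 CPM in BPS (0.28, SE 0.15). The calcium-dependent Pde1a and Pde1b had 0.23 (SE 0.17) and 0.26 (SE 0.16), while Pde1c, Pde4c and Pde9a had 1 to 21 counts per library and standard errors of 0.26 to 0.44.

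Some of these genes varied far more between libraries of 1 group than between groups. The biological coefficient of variation, the spread left after counting noise, had a median of 0.0524 over all genes and a 90th percentile of 0.172. Of the 36 genes 6 were above that percentile: Pde1a, Pde1b, Pde2a, Pde4c, Pde9a and Prkar1b. Pde2a, a phosphodiesterase that cyclic GMP activates, had 0.471: its level was 8, 2.86, 11.4, 4.03 and 9.47 CPM in DMSO replicates 1 to 5 and 8.05, 8.85, 2.44, 12.1 and 13.3 CPM in BPS replicates 1 to 5, on 90 to 481 counts. Prkar1b, the regulatory subunit typical of brain, had 0.29 and stood at 10.9, 8.21, 12, 15.1 and 17.9 CPM in DMSO and at 6.87, 16.8, 9.89, 18.1 and 16 CPM in BPS. Libraries within a treatment thus differed up to 5.46-fold in Pde2a and up to 2.64-fold in Prkar1b. Pde8b had the largest log2 fold change among the phosphodiesterases, 0.37 (SE 0.15), yet missed the threshold (edgeR adjusted p = 0.218). It ran from 9.13 to 12.7 CPM in DMSO and from 9.31 to 18.1 CPM in BPS. Without BPS replicate 2, its lowest BPS library, it passed (edgeR adjusted p = 0.0424), and with exact version matching its log2 fold change was -0.21.

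**Figure D5:**
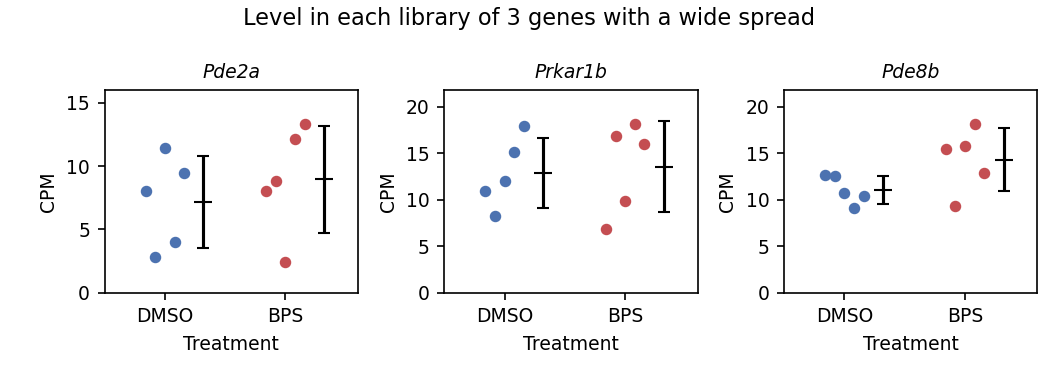
CPM in each library for Pde2a, Prkar1b and Pde8b, replicates 1 to 5 from left within each treatment, with the mean and SD beside the points and axes from 0. Both treatments span a wide range, from 2.44 to 13.3 CPM over all libraries for Pde2a.

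The transcription factors at the end of the route were not called. Creb1, whose protein is controlled by phosphorylation and not mainly by its amount, averaged 57.7 ± 1.16 CPM in the DMSO libraries and 57.7 ± 1.85 CPM in the BPS libraries (SD, n = 5 each; log2 fold change 0.00, SE 0.03, edgeR adjusted p = 0.999). Crem, whose short products repress CREB targets, stood at 5.46 ± 0.82 and 5.38 ± 0.621 CPM (-0.02, SE 0.11, edgeR adjusted p = 0.952). Its 171 to 232 counts per library were divided among many of its 45 transcripts, and of the 6 that could be tested singly 0 were called by edgeR and 0 had an unadjusted p under 0.05.

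Other genes of the pathway were counted in 8 lists of 139 different genes, of which 97 were tested: 9 rose and 0 fell by edgeR, again with 3.06% and 1.82% as the background. Upstream, 10 of 32 receptors coupled to the stimulatory G protein and their partners could be tested. By edgeR, DESeq2 or limma-voom 0 were called, and 2 had an unadjusted p under 0.05 by edgeR, as did 18.8% of all genes tested. Gnas, which encodes the stimulatory G protein, stood at 1340 ± 36.7 and 1360 ± 18.8 CPM (SD, n = 5 each; log2 fold change 0.03, SE 0.02, edgeR adjusted p = 0.514). Of 20 tested G proteins and regulators 1 rose: Rgs16, a brake on inhibitory and Gq signalling, went from 26.2 ± 1.96 to 31.9 ± 1.93 CPM (log2 fold change 0.28, SE 0.05, edgeR adjusted p = 0.0137). Its call was lost with the replicate block (edgeR adjusted p = 0.0505).

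Of 14 tested anchoring genes, which tether PKA within the cell, 2 rose. Akap12, a scaffold that binds PKA near the membrane, went from 252 ± 8.42 to 286 ± 6.43 CPM (log2 fold change 0.19, SE 0.02, edgeR adjusted p = 0.00131). Ezr, which links membrane to actin and can also bind PKA, went from 23 ± 0.772 to 26 ± 0.74 CPM (SD, n = 5 each; log2 fold change 0.17, SE 0.03, edgeR adjusted p = 0.0103). In both genes the BPS values lay above all DMSO values. PKA inhibitors and other effectors (10 tested), CREB coactivators and relatives (11 tested) and export pumps (3 tested) gave 0 calls by edgeR, DESeq2 and limma-voom. In that order 1, 3 and 1 genes had an unadjusted p under 0.05 by edgeR, as did 18.8% of all genes tested. Of the 11 CREB coactivators and relatives 3 were higher and 8 lower, with a median log2 fold change of -0.048. Crtc3, a coactivator of CREB, had a log2 fold change of -0.06 (SE 0.06, edgeR adjusted p = 0.635). On the cyclic GMP side 1 of 9 tested genes rose, Npr3, the clearance receptor of natriuretic peptides (log2 fold change 0.30, SE 0.07, edgeR adjusted p = 0.0267). Its groups overlapped through BPS replicate 1, and the call was lost in 9 of 20 alternatives, among them the fits without DMSO replicates 2, 4 or 5 and without BPS replicates 2, 3, 4 or 5.

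Of 22 tested genes known as CREB targets 5 rose and 0 fell by edgeR, where 3.06% of all genes were called higher and 1.82% lower. The median log2 fold change of the 22 was 0.06, against 0.000 over all genes. As this list was chosen with earlier results of these data known, its counts are descriptions only. The 5 called genes were Egr1, Fos, Nr4a1, Dusp1 and Bdnf, the last 2 named after their values were seen. Nr4a1, a nuclear receptor gene induced within minutes by many signals, went from 10.6 ± 0.404 to 14 ± 0.958 CPM (SD, n = 5 each; log2 fold change 0.41, SE 0.05, edgeR adjusted p = 0.00119). Egr1 and Fos had log2 fold changes of 1.08 (SE 0.09) and 1.37 (SE 0.17), and Dusp1, a MAP kinase phosphatase, 0.36 (SE 0.06). These genes also answer growth factor signals, and which route moved them was not tested. Bdnf changed least (0.13, SE 0.03, edgeR adjusted p = 0.0351), and its call was lost in 12 of 20 alternatives, 8 of them fits without 1 library: each DMSO replicate but 3, and each BPS replicate but 2.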

How the data were processed

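RNA from 10 preadipocyte libraries was sequenced with a directional Illumina library kit, per the labels' protocols. The authors deposited estimated counts per RefSeq transcript from kallisto 0.42.4, per the submitters' processing notes. Index release, genome build and strand setting are not given in the sources used here. Of the deposited columns, 0 had no sample.

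Accessions without version were matched to RefSeq symbols (GRCm38.p6), which placed 86722 of 107384 transcripts and 93.1% of counts in 32903 genes. Counts were summed per gene and rounded. After filterByExpr, 14597 genes were scaled by TMM (factors 0.9854 to 1.008). The treatment effect was fitted with edgeR (quasi-likelihood, treatment as the only term), and p-values were adjusted by Benjamini-Hochberg over all genes (threshold 0.05). The standard error is the log2 fold change over the square root of F. CPM use TMM-scaled library sizes. Lengths came from GENCODE transcripts and matched all 40 genes. Promoters came from RefSeq.

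The members, lists and alternatives were chosen with earlier results of these data known. The text names called genes, all PKA and CREB genes, the 4 cyclases and 8 phosphodiesterases with the highest level per length, the largest rise and fall, untested members, up to 3 called genes per list, Gnas and Crtc3 (1 further gene fixed by name is not reported here); other members were described after their values were seen. The phosphodiesterase and cyclase classes were set after the values were seen and are not tested. Code was tested on simulated counts. Software was edgeR 4.0.16, DESeq2 1.42.0 and limma 3.58.1 in R 4.3.3. Alternatives were 3 scalings, 2 filters, DESeq2, limma-voom, robust estimation, a replicate block, exact version matching, single transcripts and leaving out each library. Intervals between replicates rest on 5 libraries a group, with 37920689 to 42717227 counts each.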

Additional observations from a re-analysis of the deposited data

Results flagged for a closer look

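Of 96 groups of 5 values examined, 5 had a library that stood apart from its group by Dixon's criterion at the 95% level, where chance gives about 4.8. Pde4a had 40.3 CPM in DMSO replicate 2 and 35 to 36.2 CPM in the other DMSO libraries. Adcy2 had 4.57 CPM in BPS replicate 4, against 5.12 to 5.31 CPM. Pde7b had 10.8 CPM in BPS replicate 1, against 8.15 to 8.88 CPM. Pde9a had 0.0254 CPM, a single count, in DMSO replicate 3, against 0.363 to 0.486 CPM. Dusp1 had 17.6 CPM in BPS replicate 2, against 15.1 to 15.7 CPM.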

How the results depend on the processing

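Adcy7 kept its direction and its call in all 20 gene-level alternatives, with log2 fold changes from -0.37 to -0.35 and adjusted p of at most 0.0011. The count of 2 called genes moved with the processing: it was 1 with DESeq2 size factors, without a filter, with limma-voom and with exact version matching (26 genes tested), 6 with the DESeq2 Wald test, and 0 among 96 transcripts tested without summing (13 at an unadjusted p under 0.05), which spreads counts over more tests. It was 2 with library size alone, where Prkaca replaced Adcy1, and 3 with upper-quartile scaling and with the CPM filter. Fits without 1 library gave 1 to 5, the highest without BPS replicate 1. Without DMSO replicates 1, 2, 3 or 4 and without BPS replicates 3 or 5 it was 1. The count of 9 pathway genes was 7 to 9 in those fits and 3 among transcripts tested singly, and all calls were higher under BPS. The causes of the other moves were not tested. Over all genes the DESeq2 Wald test called 7.38% and limma-voom 4.76%, and edgeR called 0.335% of all transcripts. Shares over all genes under the other settings are not given here, so those counts have no background beside them. With the replicate block the counts of called members and pathway genes were 3 and 6. Deviations of DMSO and BPS libraries with the same number were hardly correlated (-0.043 to 0.076). Libraries with different numbers were not compared, so these values cannot decide whether the numbers pair the libraries. Of 937 values for 48 genes under alternatives, 823 kept sign and side of the threshold, 35 lost and 14 gained a call, 65 uncalled ones differed in sign, and 0 called ones reversed. Exact version matching, which leaves 72.1% of counts, moved uncalled values most: Pde4d to -1.09, Adcy6 to 0.75 and Creb1 to -0.55. Scaling by library size alone shifted the median of all genes by -0.014 and gave 45.9% of all calls as higher, against 62.8%. Depth limits Adcy10, Pde6a, Pde6b and Pde6c, which had 0 to 6 counts.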
